A study of Mus musculus with 18 samples.

Results

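The glutathione transferases outside the alpha, mu and pi classes were examined in RNA collected from eyecups of *rd1* mice at P40. The set was given by name and not by a cut on any measured value, although earlier results of these data were known. It holds 10 of the 47729 genes in the count table: the theta genes *Gstt1*, *Gstt2* and *Gstt3*, the omega gene *Gsto1*, the zeta gene *Gstz1*, the kappa gene *Gstk1*, the microsomal genes *Mgst1*, *Mgst2* and *Mgst3*, and *Gstcd*. All 10 passed the filter on low counts. Per the labels, all libraries came from *rd1* mice, which the study's methods give as FVB/N, a strain homozygous for the *rd1* allele of *Pde6b*, in which rods die early and cones follow. The same methods describe fewer pairs of *rd1* eyes at P40 than are labelled so here, beside pairs of wild-type CD1 eyes of that age. Whether all 9 pairs were *rd1* could not be settled from the sources used here, and the labels were followed. In each of 9 mice, 1 eye received AAV8-Best1-Nrf2, which carries the human *NFE2L2* cDNA behind the human Best1 promoter of the retinal pigment epithelium (RPE), together with AAV-Best1-GFP in the 7M8 capsid. The fellow eye, here called control, received AAV-Best1-GFP alone, so all 18 eyes shared the GFP vector and, as labelled, the *rd1* genotype, and Best1-Nrf2 eyes carried a second vector. The comparison between fellow eyes asks which transferase genes differed when Nrf2 was expressed in the RPE of an eye labelled as degenerating. The retina was removed, the cleaned eyecup was held in a stabilizing reagent, and RNA was purified from the liquid, which the study takes as RNA of the RPE. Sex was not given in the sources used here.

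Glutathione transferases join the thiol of glutathione to electrophiles such as reactive aldehydes, quinones and epoxides, or use it to reduce peroxides. The cytosolic classes share a thioredoxin-like fold. The kappa enzyme sits in mitochondria and peroxisomes, and the microsomal enzymes are unrelated proteins that span membranes. Nrf2 is a transcription factor that is held by Keap1 and, when released, binds antioxidant response elements together with small Maf proteins. Many alpha, mu and pi genes are textbook targets of it.

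Libraries held 18956748 to 49598700 counts, and the smallest was control replicate 8. Counts mapped to *Nfe2l2*, which encodes Nrf2, rose in 9 of 9 mice, from 89.7 ± 17.8 to 453 ± 147 CPM (counts scaled to a common library size; mean ± SD, n = 9 per group here and below). Its log2 fold change was 2.29 (SE 0.21, edgeR adjusted p = 6.21e-05). The part of these counts that came from the human cDNA was not tested. RPE markers were abundant in every eye, with 11374 to 64250 summed CPM over 14 genes in controls and 12859 to 67589 CPM in Best1-Nrf2 eyes, and 6 of the 14 fell, among them *Rpe65*, the isomerase of the visual cycle. All 10 cone markers fell (median log2 fold change, -3.26), and 11 of 18 macrophage and microglia markers rose (median, 1.65). In these bulk samples, fewer cells of a type and less RNA per cell cannot be told apart. For the cone markers, the amount of retina left on the eyecup cannot be told apart from these either. In the removed retinas of other *rd1* mice, the study reports a small gain in the central share of cones with Best1-Nrf2. Markers of tissue other than RPE were also found: a list of 12 ocular surface epithelium markers, written after the values of *Gsto1* were seen, held 0.0319% to 6.82% of counts. The highest shares were in both eyes of mouse 8 and the lowest in the Best1-Nrf2 eye of mouse 6. For genes whose value moved by over 1.5 times without these mice, that value is also given.

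Promoters were compared because the antioxidant response element is the DNA that Nrf2 binds. RefSeq windows on GRCm38.p6, from 250 bases before to 50 bases after a transcription start, were found for 9 of the 10 genes, and *Gstt2* was the one without. The core TGACNNNGC, read on both strands, occurred in 1 of the 9 genes, *Mgst1*. It was found in 3 of 13 alpha, mu and pi genes, in 4 of 7 genes of the Nrf2 pathway, and in 3781 of all 27025 genes with a window. The 250 bases before the start are shown for *Mgst1*, for *Gstt3*, the member with the smallest p, and for *Gsto1*, the most abundant member. Capitals mark the match in *Mgst1*, which begins 56 bases before the start and reads TGACCGTGC on the opposite strand.
Mgst1, chr6:138140277-138140526, plus strand: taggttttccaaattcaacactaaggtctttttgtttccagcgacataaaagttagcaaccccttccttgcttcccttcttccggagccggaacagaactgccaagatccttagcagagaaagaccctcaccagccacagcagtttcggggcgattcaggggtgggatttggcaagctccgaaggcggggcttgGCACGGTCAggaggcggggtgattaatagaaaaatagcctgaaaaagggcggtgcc
Gstt3, chr10:75781415-75781664, minus strand: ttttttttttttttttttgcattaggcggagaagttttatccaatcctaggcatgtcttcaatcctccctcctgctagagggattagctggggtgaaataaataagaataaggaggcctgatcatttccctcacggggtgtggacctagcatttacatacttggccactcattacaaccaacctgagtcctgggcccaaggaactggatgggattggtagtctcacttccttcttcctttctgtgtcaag
Gsto1, chr19:47854723-47854972, plus strand: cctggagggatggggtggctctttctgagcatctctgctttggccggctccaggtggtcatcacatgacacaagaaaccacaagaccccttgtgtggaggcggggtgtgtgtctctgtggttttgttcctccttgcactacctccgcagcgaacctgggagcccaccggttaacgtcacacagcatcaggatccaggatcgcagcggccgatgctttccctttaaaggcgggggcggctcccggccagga
*Mgst1* and *Gstt3* each have another annotated start, whose window held no match. A match is a run of letters and not a shown binding site, and elements farther from the start were not searched.

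None of the 10 genes passed the edgeR test at an adjusted p of 0.05, against 4.25% of all 18958 genes tested (3.12% higher and 1.13% lower). At an unadjusted p under 0.05 there were 3, *Gstt3*, *Mgst1* and *Gstt2*, against 12.8% of all genes. The median log2 fold change was -0.30, compared with -0.03 over all genes tested, and 7 of the 10 were below 0, against 53.0% of all genes. *Mgst1* alone had the same direction in 9 of 9 mice, against 4.34% of all genes. In 0 of the 10 did the groups fail to overlap, against 1.17% of all genes. Other tests called some of these genes. DESeq2 called *Gstt3* lower (adjusted p = 0.0201) and *Mgst1* higher (adjusted p = 0.0123), where it called 7.80% of all genes (4.96% higher and 2.84% lower). Limma voom with sample weights called these and *Gstt2* (adjusted p = 0.0308, 0.0164 and 0.0376), where it called 7.52% of all genes (4.87% higher and 2.65% lower). For these 3 genes the call therefore changed with the tool.

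**Figure D1:**
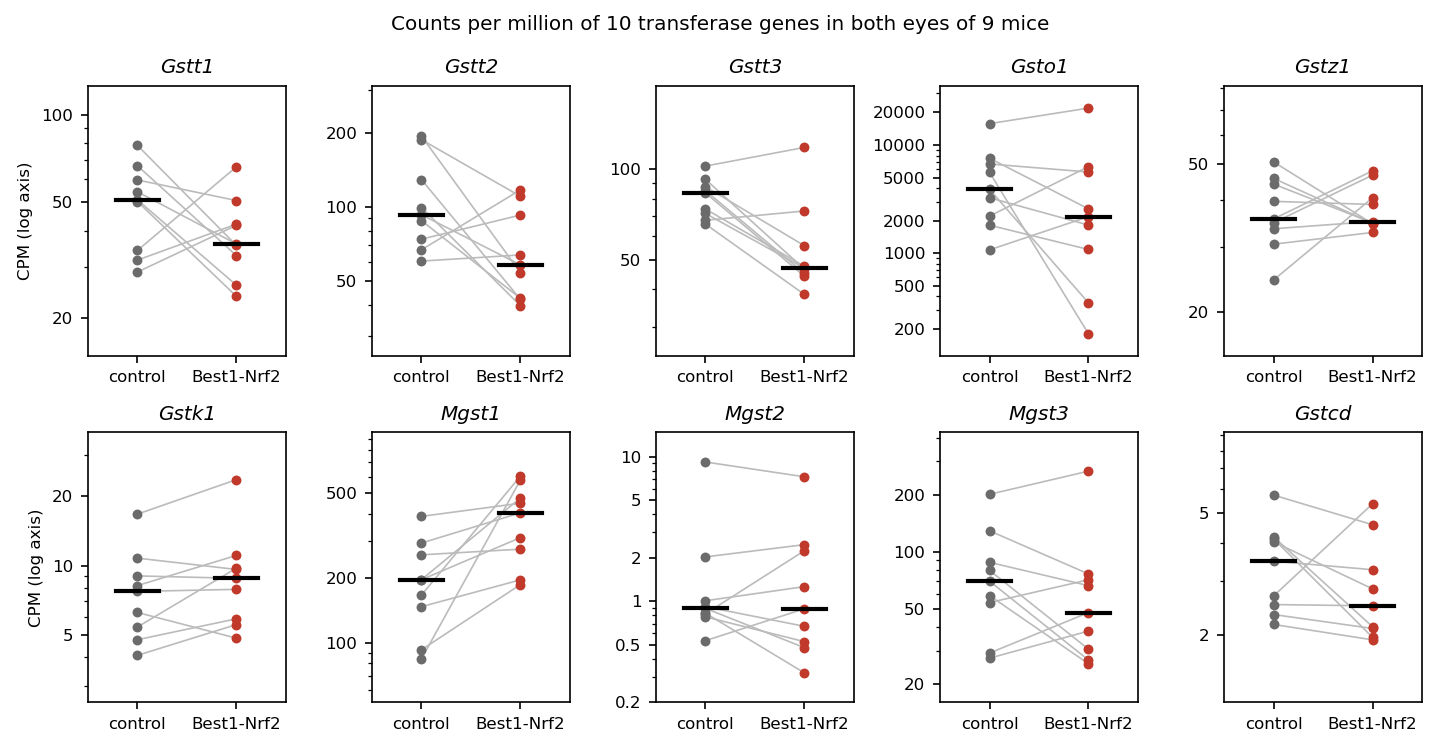
CPM (log axes, each panel with its own range) of the 10 genes in control and Best1-Nrf2 eyes. Points are libraries, grey lines join the eyes of a mouse, and black bars are medians; *Mgst1* lies higher on the right in 9 of 9 mice, and *Gsto1* spanned 180.4 to 21962 CPM in Best1-Nrf2 eyes.

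The alpha, mu and pi genes were the contrast within the same enzyme family. Of 13 tested, 11 rose and 0 fell, and their median log2 fold change was 2.60. *Gstm1*, a mu gene, rose from 92.7 ± 61.8 to 6924 ± 3809 CPM (log2 fold change 6.26, SE 0.35), and *Gsta2*, an alpha gene, from 75.6 ± 32.7 to 1060 ± 313 CPM (3.84, SE 0.26). *Gstp1*, a pi gene, rose from 206 ± 94.4 to 2326 ± 730 CPM (3.53, SE 0.27). The lowest change among the 13 was that of *Gstm5*, 1.03, and the highest among the 10 genes studied here was that of *Mgst1*, 0.95. These 2 estimates had nearly the same 95% intervals (0.36 to 1.70 and 0.35 to 1.55), and *Mgst1* stood at 1.05 to 1.07 without mouse 2, 3 or 5. Counts of near-identical genes within the alpha, mu and pi classes are uncertain, since reads may be split between them.

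**Figure D2:**
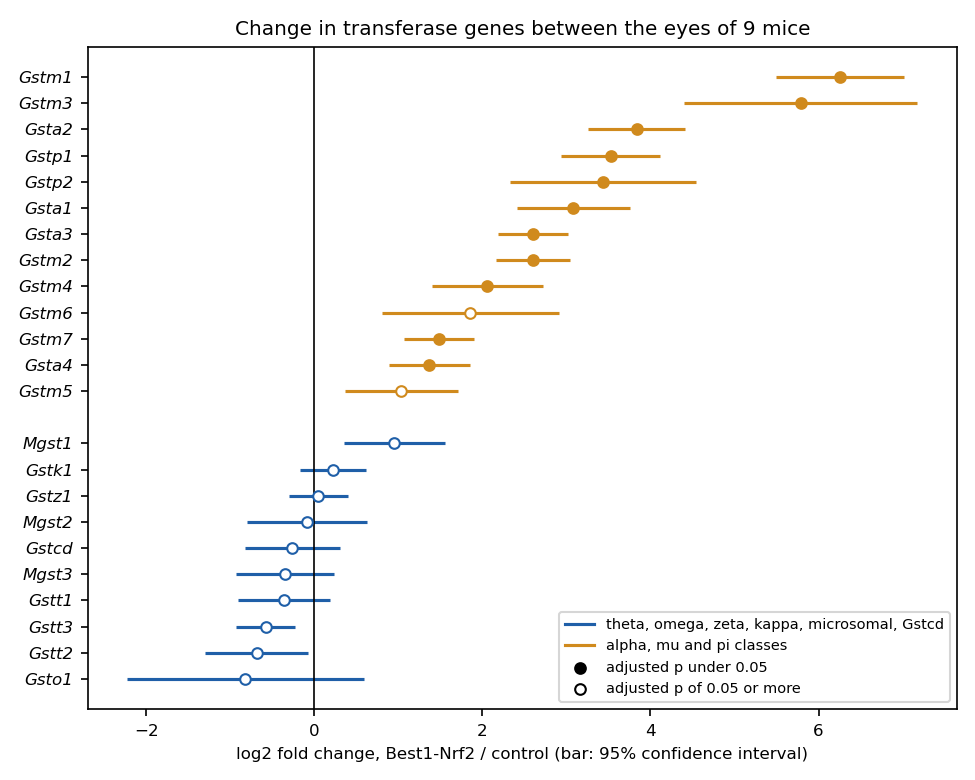
Log2 fold change (x axis) with its 95% confidence interval for the 10 genes and for 13 alpha, mu and pi genes, by the paired edgeR fit over 9 mice. Filled points have an adjusted p under 0.05; the blue genes lie between -0.82 and 0.95 with no filled point, and the orange genes between 1.03 and 6.26 with 11 filled.

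Theta class enzymes act on small halogenated compounds and on sulfate esters, and some have peroxidase activity. Their genes lie side by side on mouse chromosome 10 (GRCm38, minus strand): *Gstt3* (ENSMUSG00000001665) at 75774115-75781414, *Gstt1* (ENSMUSG00000001663) at 75783813-75798584 and *Gstt2* (ENSMUSG00000033318) at 75831114-75837424. *Gstt4* lies between *Gstt1* and *Gstt2*. It was near 0 in both groups (0.0933 ± 0.0815 and 0.114 ± 0.184 CPM) and was not tested.

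*Gstt3* had a lowest, median and highest value of 65.7, 83.5 and 102.5 CPM in controls and of 38.4, 46.9 and 118.3 CPM in Best1-Nrf2 eyes. The highest value in both groups came from mouse 3, and 7 of 9 Best1-Nrf2 eyes were below the fellow eye, and the groups overlapped. The fitted log2 fold change was -0.58 (SE 0.16, 95% interval -0.93 to -0.22, edgeR adjusted p = 0.0800). It passed at adjusted p = 0.0412 without mouse 8, where 1.19% of all genes were called lower, and at 0.0488 without mice 6 and 8, where 1.93% were. Of the 31-base words of *Gstt3*, 14.05% are shared with other genes, mainly the overlapping *Gm20441*, so its counts are uncertain to that extent.

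*Gstt2* was more variable, with 60.3, 93.2 and 194.6 CPM in controls and 39.7, 58.2 and 117.6 CPM in Best1-Nrf2 eyes. It was lower in 6 of 9 mice, and the groups overlapped between 60.3 and 117.6 CPM. Its log2 fold change was -0.68 (SE 0.28, 95% interval -1.29 to -0.07, edgeR adjusted p = 0.305). In mice 6 and 8 *Gstt2* was higher with Best1-Nrf2, by 0.33 and 0.81 on the log2 scale. Without them the log2 fold change was -1.03, with an adjusted p of 0.0283. In that fit 1.93% of all genes were called lower. These mice were picked by the marker list written after the *Gsto1* values were seen. Leaving out mice that went the other way enlarges the fall, so this p is no separate support.

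*Gstt1* had 28.8, 51.0 and 78.4 CPM in controls and 23.8, 36.0 and 66.3 CPM in Best1-Nrf2 eyes. It too was lower in 6 of 9 mice. The log2 fold change was -0.36 (SE 0.25, 95% interval -0.90 to 0.19, edgeR adjusted p = 0.655). It was -0.67 (adjusted p = 0.114) without mice 6 and 8 and -0.23 (adjusted p = 0.828) without mouse 1.

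The mice that went against the others were not the same for each theta gene. *Gstt1* and *Gstt2* were both higher with Best1-Nrf2 in mice 4, 6 and 8, whereas *Gstt3* was higher in mice 3 and 8. Within mice, the change of *Gstt1* was above that of *Gstt2* by 0.32 ± 0.32 on the log2 scale, in 8 of 9 mice (2-sided exact sign-flip permutation test, p = 0.0234, adjusted p = 0.0703 over the 6 pairs compared within classes). *Gstt1* and *Gstt3* differed by 0.23 ± 0.73 and *Gstt2* and *Gstt3* by -0.10 ± 0.80, both within their spread (exact adjusted p = 0.628 and 0.715). The first of these was 0.13 without mouse 4 and 0.038 without mouse 6. The neighbouring genes *Ddt*, next to *Gstt3*, and *Mif*, next to *Gstt2*, encode related tautomerases. *Ddt* had a log2 fold change of -0.63 (SE 0.39, edgeR adjusted p = 0.593) and *Mif* one of -0.07 (SE 0.36, edgeR adjusted p = 0.98). Photoreceptor markers moved with the group, and with their mean as a covariate the log2 fold changes were 0.96 for *Gstt1*, 0.57 for *Gstt2* and -0.45 for *Gstt3*, and only 12 genes passed in all.

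The omega enzyme encoded by *Gsto1* reduces dehydroascorbate and methylated arsenic and removes glutathione from protein thiols. The gene (ENSMUSG00000025068) lies on chromosome 19 at 47854970-47864790 (GRCm38, plus strand), within the span of *Cfap43* on the other strand, with which it shares 0 exon bases. Its values were 1076, 3902 and 15774 CPM in controls and 180.4, 2181 and 21962 CPM in Best1-Nrf2 eyes. The highest library was 14.7 times the lowest in controls and 122 times in Best1-Nrf2 eyes. The latter was the widest range among the 10 genes, while in controls that of *Mgst2* was wider, at 17.2 times. The lowest library held 6219 counts. The log2 fold change was -0.82 (SE 0.65, 95% interval -2.23 to 0.59, edgeR adjusted p = 0.712), lower in 6 of 9 mice. Mice 4 and 6 had within-mouse changes of -3.49 and -4.96, whereas mouse 9 had 1.52. Without the mouse as a block the log2 fold change was -0.19, and with 1 mouse left out it ranged from -1.14 (mouse 9) to -0.48 (mouse 4) and -0.42 (mouse 6). It was -4.21 (SE 1.19) with the photoreceptor covariate and -2.56 (SE 1.49) with the macrophage and microglia covariate, and passed in none of these fits.

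The spread of *Gsto1* was set beside that of markers of the ocular surface epithelium, which covers the cornea and conjunctiva and is not part of the RPE. Their part in the values of *Gsto1* was not tested. The 12 markers summed to 2152, 19239 and 68238 CPM in controls (lowest, median and highest) and to 319, 8620 and 50324 CPM in Best1-Nrf2 eyes. None was called different between groups, their median log2 fold change was -0.75, and none was at 0 in any library. *Krt12*, the keratin that defines corneal epithelium, had 1.07 CPM in the Best1-Nrf2 eye of mouse 6 and 86.5 CPM in that of mouse 4, the libraries with the lowest *Gsto1* (180.4 and 348.2 CPM). In mouse 8 it had 33794 CPM in the control eye and 20595 CPM in the Best1-Nrf2 eye, the libraries with the highest *Gsto1* (15774 and 21962 CPM). By *Krt12* alone, some other libraries departed from this order. The Best1-Nrf2 eye of mouse 3 had 1.62 CPM of *Krt12* and 1085 CPM of *Gsto1*, the control eye of mouse 9 had 111 and 2206 CPM, and the control eye of mouse 1 had 2487 and 1076 CPM. Their sums over all 12 markers were 1940, 4313 and 6380 CPM. Libraries also departed from the order by the sum. The control eye of mouse 3 had 2152 CPM of markers and 1819 CPM of *Gsto1*, above the *Gsto1* of the control eye of mouse 1. The control eye of mouse 4 had 37301 and 3902 CPM, and that of mouse 5 had 10326 and 6690 CPM. With the mean of the 12 markers as a covariate, chosen after the data were seen, the log2 fold change of *Gsto1* was -0.10 and its SE was 0.21 in place of 0.65 (edgeR adjusted p = 0.852). *Gstt1* and *Gstt2* then stood at -0.63 and -0.93 (adjusted p = 0.0894 and 0.0538), *Gstt3* at -0.59 (adjusted p = 0.0870) and *Mgst1* at 0.87 (adjusted p = 0.126). No member passed there either, while 1065 genes passed in all.

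**Figure D3:**
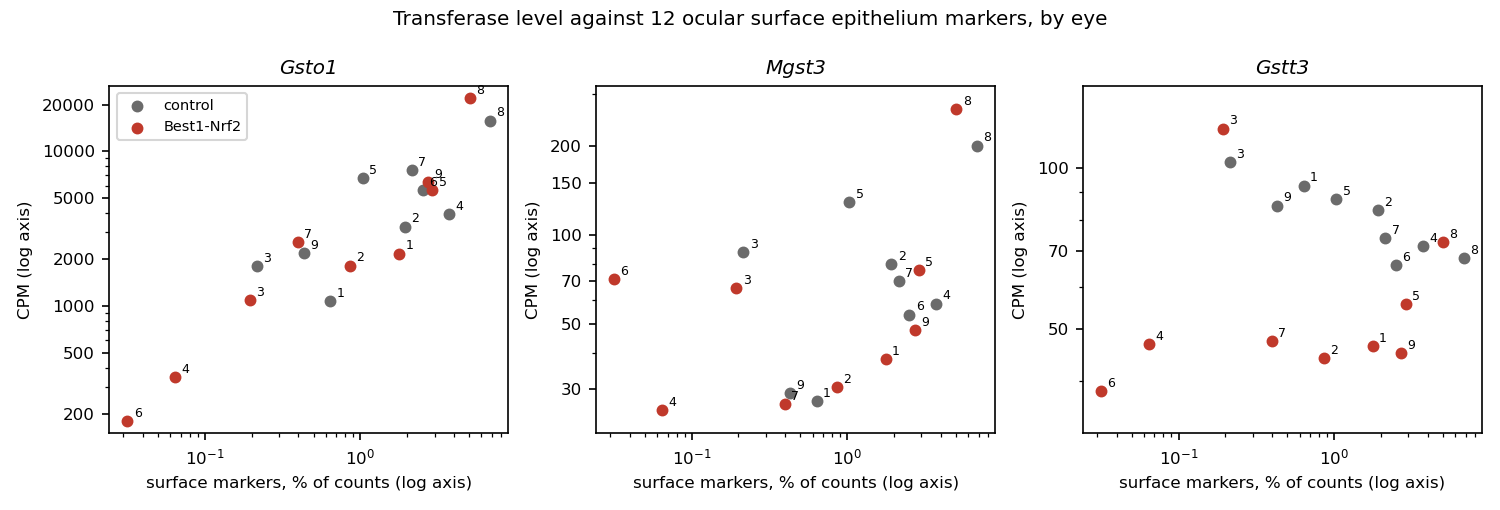
CPM of *Gsto1*, *Mgst3* and *Gstt3* (log axes) against the share of counts held by 12 ocular surface epithelium markers (log axis); each point is a library, numbered by mouse. *Gsto1* was lowest in the Best1-Nrf2 eye of mouse 6, at 0.0319% markers, and highest in mouse 8, at 5.03% and 6.82%; for *Gstt3* the libraries with the most markers lie in the middle of the range.

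*Gsto2*, the other omega gene, lies 743 bases from *Gsto1* and did not share its spread. It had 2.44 ± 0.864 CPM in controls and 3.00 ± 0.747 CPM in Best1-Nrf2 eyes, with a highest library 3.35 times the lowest in controls (log2 fold change 0.33, SE 0.26, edgeR adjusted p = 0.716).

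*Gstz1* encodes maleylacetoacetate isomerase, which acts next to last in the breakdown of tyrosine. The gene (ENSMUSG00000021033, chromosome 12, 87147165-87164723, plus strand) had 24.4, 35.6 and 50.8 CPM in controls and 32.8, 35.1 and 48.0 CPM in Best1-Nrf2 eyes. The medians were alike, and the log2 fold change was 0.05 (SE 0.16, 95% interval -0.31 to 0.40, edgeR adjusted p = 0.959). It shares 465 exon bases with *Pomt2* on the other strand. The amplification kit does not mark strand, so reads there cannot be assigned. *Fah*, the enzyme that follows it, had 45.0 ± 8.08 and 40.8 ± 8.59 CPM (log2 fold change -0.15, SE 0.14, edgeR adjusted p = 0.791).

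*Gstk1* (ENSMUSG00000029864, chromosome 6, 42245935-42250447, plus strand) encodes the kappa enzyme of mitochondria and peroxisomes. It had 4.08, 7.72 and 16.7 CPM in controls and 4.84, 8.80 and 23.6 CPM in Best1-Nrf2 eyes, and mouse 8 was highest in both. The log2 fold change was 0.22 (SE 0.18, 95% interval -0.17 to 0.61, edgeR adjusted p = 0.727), higher in 6 of 9 mice. It was 0.14 without mouse 6 and 0.092 without mice 6 and 8. *Gstcd* (ENSMUSG00000028018, chromosome 3, 132981752-133092033, minus strand) encodes a protein named for its transferase C-terminal domain. It had 2.17, 3.49 and 5.73 CPM in controls and 1.93, 2.49 and 5.37 CPM in Best1-Nrf2 eyes. It was lower in 8 of 9 mice, but mouse 6 went the other way by 0.98, and the log2 fold change of -0.26 (SE 0.26, 95% interval -0.83 to 0.31) was close to its error (edgeR adjusted p = 0.80). It was -0.41 (SE 0.25, adjusted p = 0.452) without mouse 6 and -0.45 (SE 0.25, adjusted p = 0.399) without mice 6 and 8, but -0.16 without mouse 5 and -0.17 without mouse 9. It reversed to 0.75 with the photoreceptor covariate and was -0.48 with the ocular surface covariate described above. It shares 100 exon bases with *Ints12* on the other strand.

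The microsomal enzymes belong to the MAPEG family of membrane proteins. *Mgst1* is an abundant transferase and peroxidase of the endoplasmic reticulum and the outer mitochondrial membrane, and it protects membranes from lipid peroxides. The gene (ENSMUSG00000008540, chromosome 6, 138140316-138156755, plus strand) had 84.1, 197.4 and 390.7 CPM in controls and 187.4, 406.0 and 603.2 CPM in Best1-Nrf2 eyes. Each Best1-Nrf2 eye was above its fellow eye, although the groups overlapped between mice. The within-mouse differences in log2 CPM ran from 0.09 in mouse 2 to 2.78 in mouse 8. The fitted fold was 1.93 (log2 fold change 0.95, SE 0.28, 95% interval 0.35 to 1.55, edgeR adjusted p = 0.0906). Without mouse 8 it was 0.74 on the log2 scale, with an adjusted p of 0.111. The macrophage and microglia markers were also higher in Best1-Nrf2 eyes (180 to 521 summed CPM in controls, 199 to 829 CPM in Best1-Nrf2 eyes, and only *Mrc1* at 0 in any library). Their sum was lower with Best1-Nrf2 in mice 1 and 4, where *Mgst1* rose by 1.02 and 1.85, and higher in the other mice. Their mean log2 CPM rose in mice 1 and 4 too (2.38 to 3.32 and 2.55 to 2.83). With this mean as a covariate *Mgst1* stood at 0.35 (SE 0.65, edgeR adjusted p = 0.9996), where 30 genes passed in all, and with the photoreceptor covariate at 1.48 (SE 0.64, edgeR adjusted p = 0.256). This is the gene whose RefSeq promoter window, printed above, holds the match.

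*Mgst3* encodes a related peroxidase. The gene (ENSMUSG00000026688, chromosome 1, 167371966-167393841, minus strand) had 27.4, 69.8 and 200.7 CPM in controls and 25.6, 47.6 and 265.9 CPM in Best1-Nrf2 eyes. Both highest values came from mouse 8. The log2 fold change was -0.35 (SE 0.27, 95% interval -0.93 to 0.24, edgeR adjusted p = 0.703), lower in 5 of 9 mice. It was -0.57 without mice 6 and 8, and -0.21 without mouse 2 and without mouse 7. *Mgst2* (ENSMUSG00000074604, chromosome 3, 51660360-51682677, plus strand), which can also make leukotriene C4, had few counts. Its values were 0.533, 0.892 and 9.18 CPM in controls and 0.319, 0.887 and 7.25 CPM in Best1-Nrf2 eyes, from 11 to 224 counts per library. Mouse 8 was again highest in both. The log2 fold change was -0.09 (SE 0.33, 95% interval -0.80 to 0.63, edgeR adjusted p = 0.962).

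The change of *Mgst1* was above that of *Mgst3* by 1.32 ± 1.15 on the log2 scale, in 8 of 9 mice (2-sided exact sign-flip permutation test, p = 0.0117, adjusted p = 0.0703). It was above that of *Mgst2* by 1.05 ± 1.24, in 7 of 9 mice (exact p = 0.0391, adjusted p = 0.0781). *Mgst2* and *Mgst3* differed by 0.27 ± 1.3 (exact adjusted p = 0.628), and by 0.079 without mouse 3 and 0.51 without mouse 6. None of the 6 pairs within a class passed after adjustment.

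Other members of the MAPEG family act on lipid mediators. *Ltc4s*, leukotriene C4 synthase, rose from 1.29 ± 1.31 to 4.84 ± 3.83 CPM, in 9 of 9 mice (log2 fold change 2.08, SE 0.50, edgeR adjusted p = 0.0364). It is named after its values were seen, and it was the only gene called among 14 tested relatives that share these folds (median log2 fold change, -0.22). Without the mouse block, or without mouse 1, 3, 4, 7 or 9, 0 of these relatives were called. *Ltc4s* is known from mast cells and macrophages. Of the macrophage and microglia markers, 11 of 18 rose. Their sum was lower with Best1-Nrf2 in mice 1 and 4, where *Ltc4s* was higher, and higher in the other mice. Of 7 mast cell markers 4 were tested, and 0 of these were called. The part of either cell type in the rise of *Ltc4s* was not tested. *Alox5ap* had 1.28 ± 0.622 and 1.85 ± 0.713 CPM (0.58, SE 0.37, edgeR adjusted p = 0.615), and *Ptges*, which makes prostaglandin E2, had 113 ± 38.6 and 94.4 ± 8.15 CPM (-0.19, SE 0.20, edgeR adjusted p = 0.810).

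Levels of different genes were compared as CPM per kilobase of exon. In controls the medians fell in the order *Gsto1* (1929), *Mgst1* (98.1), *Mgst3* (63.6), *Gstt1* (33.4), *Gstt2* (22.4), *Gstt3* (21.7), *Gstz1* (7.00), *Gstk1* (5.26), *Gstcd* (0.646) and *Mgst2* (0.241). The order was the same in Best1-Nrf2 eyes, from 1078 for *Gsto1* to 0.239 for *Mgst2*. *Gsto1* was above *Mgst1* in 9 of 9 controls and in 7 of 9 Best1-Nrf2 eyes, the exceptions being mice 4 and 6. Some neighbours in the order did not differ beyond their spread in controls by a 2-sided exact sign-flip permutation test adjusted over 9 comparisons: *Mgst1* and *Mgst3* (p = 0.158), *Gstt2* and *Gstt3* (p = 0.191), *Gstz1* and *Gstk1* (p = 0.146), and *Gstcd* and *Mgst2* (p = 0.135). These calls and the theta order also rest on the length used. With the longest transcript of each gene, *Gstt3* (42.0) stood above *Gstt2* (41.3), *Mgst1* and *Mgst3* differed (exact adjusted p = 0.0176), as did *Gstz1* and *Gstk1* (exact adjusted p = 0.0211), and *Mgst3* and *Gstt1* no longer did (exact adjusted p = 0.236).

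**Figure D4:**
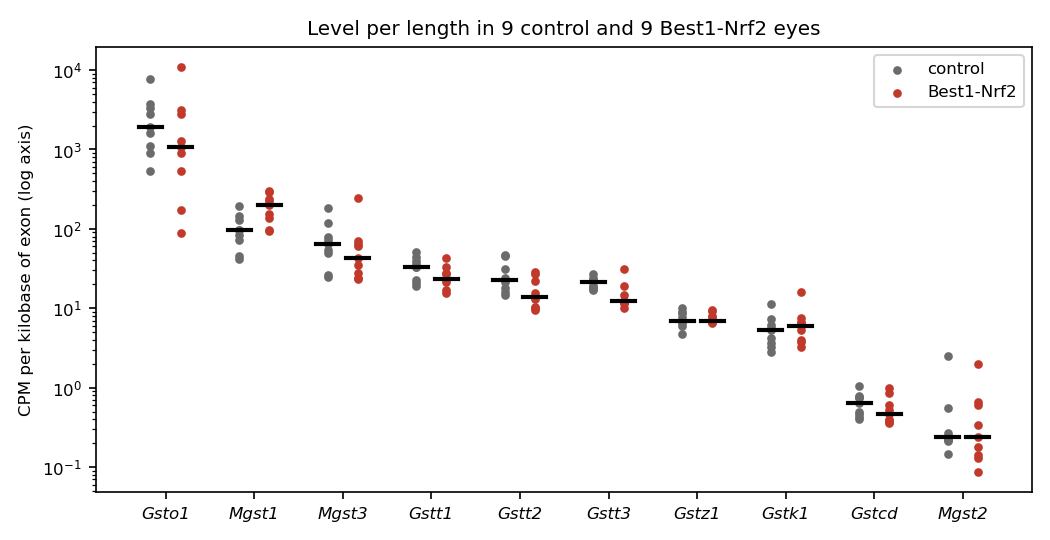
CPM per kilobase of exon (log axis) for the 10 genes, in order of the control median; points are libraries and bars are medians. *Gsto1* lies highest, at medians of 1929 in controls and 1078 in Best1-Nrf2 eyes, and *Mgst2* lowest, at 0.241 and 0.239.

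The place of these genes in the whole transferase pool was taken from the same scale, by summing the 10 genes and the alpha, mu and pi genes. In controls the 10 genes held 42.6%, 53.0% and 64.3% of the pool (lowest, median and highest). In Best1-Nrf2 eyes they held 3.04%, 9.92% and 39.7%, and the groups did not overlap. The within-mouse change was -39.9 ± 13.6 percentage points, lower in 9 of 9 mice. The alpha, mu and pi genes had a median sum of 1685 CPM per kilobase in controls and 10158 in Best1-Nrf2 eyes, while the sum of the 10 genes had medians of 2132 and 1257. With *Gsto1* left out, chosen after its spread was seen, the other 9 genes held 5.67% to 17.2% of the pool in controls and 1.93% to 3.50% in Best1-Nrf2 eyes, again lower in 9 of 9 mice. Their own sum had medians of 254 and 326 CPM per kilobase. The lower share therefore came with a larger sum of the other classes, which the rise of 11 of their genes fixes in advance, and no test is given.

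**Figure D5:**
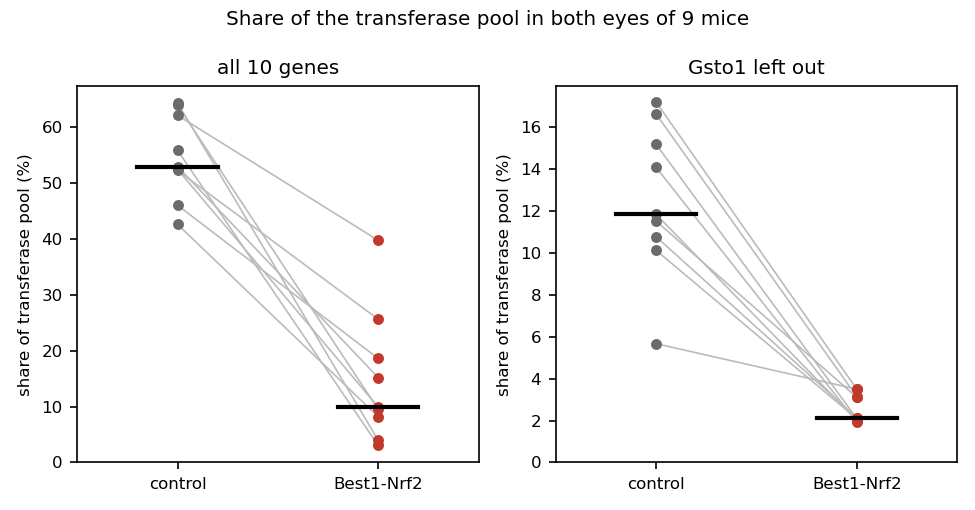
Share of the transferase pool (percent of summed CPM per kilobase; y axes start at 0 and differ in range) held by all 10 genes and by the 9 without *Gsto1*. Points are libraries, grey lines join the eyes of a mouse and bars are medians; 9 of 9 lines go down in both panels.

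The steps that follow conjugation were described by a list of 17 genes of the mercapturate pathway, which trims and exports glutathione conjugates. Of 15 tested, 3 rose and 1 fell (median log2 fold change, 0.14). *Ggt5*, a gamma-glutamyl transferase that also acts on leukotriene C4, rose from 1.96 ± 0.695 to 22.7 ± 13.6 CPM (3.36, SE 0.54). The conjugate exporters *Abcc4* and *Abcc1* rose from 44.5 ± 17 to 411 ± 257 CPM (2.95, SE 0.39) and from 71.0 ± 31.6 to 169 ± 65.0 CPM (1.25, SE 0.23). *Dpep2*, a dipeptidase, fell from 16.9 ± 6.4 to 4.10 ± 1.52 CPM, in 9 of 9 mice (adjusted p = 0.000232). Of 11 genes of leukotriene and prostaglandin E metabolism, 2 rose and 0 fell (median, 0.22). These were *Ltc4s* and *Ptgr1*, a reductase of prostaglandins and leukotriene B4, which rose from 159 ± 169 to 1757 ± 602 CPM (3.99, SE 0.40). Of 10 genes of the Nrf2 pathway, 9 rose (median, 3.48). Among these is *Nfe2l2*, whose counts may include the vector's cDNA, and without it 8 of 9 rose (median, 3.53), with *Srxn1*, *Gclc* and *Hmox1* at 5.56, 4.72 and 4.50.

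The nearest protein-coding genes on either side of the 10 were 17 further genes, of which 14 were tested. EdgeR called 0 of them (1 at an unadjusted p under 0.05; median log2 fold change, -0.08). The exception at the unadjusted p was *Lrrc52*, which lies beside *Mgst3* and encodes a leucine-rich repeat protein. It had 0.762 ± 0.638 CPM in controls and 3.47 ± 2.17 CPM in Best1-Nrf2 eyes (log2 fold change 2.14, SE 0.59, edgeR adjusted p = 0.0697), higher in 9 of 9 mice. Its counts were low, with 9 in the lowest control library. *Lrrc52* was the 1 neighbour of 14 tested that DESeq2 and voom called, where they called 7.80% and 7.52% of all genes. *Aldh9a1*, on the other side of *Mgst3*, had a log2 fold change of 0.19 (SE 0.17, edgeR adjusted p = 0.750).

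Genes with the most similar pattern over the 9 within-mouse changes were sought among 12379 genes, by the root mean square difference in log2 units. For *Gstt3* they were *Phgdh* (0.233) and *Psat1* (0.235), which make serine, and the transporter *Slc16a6* (0.252), against a median of 1.00 over all genes compared. For *Mgst1* they were *Ifnar2* (0.372), *Fas* (0.443) and *Ebpl* (0.445), against 1.44. For *Gstt2* they were *Sat2* (0.224), *Kcnj13* (0.267) and *Sostdc1* (0.270), against 1.33. This is a description over 9 mice, and the changes share the libraries of the genes compared.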

How the data were processed

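Poly(A) RNA purified from the liquid that held the cleaned eyecup was amplified with a low-input kit and sequenced in 9 control and 9 Best1-Nrf2 libraries. The labels state 2 sequencing runs without assigning libraries to them, and a run effect was not modelled. Per the submitters' processing notes and the paper, the authors aligned reads to mm10 with STAR, counted them with featureCounts and also ran Salmon 0.8.1. Values in the deposited table are expected counts by Ensembl gene, as whole numbers without scaling between libraries. Which counter made it is not given in the sources used here. No molecular identifiers are described, so reads may include PCR copies. The 95% intervals come from the fit over 9 mice and include the spread between mice.

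Here edgeR 4.0.16 (quasi-likelihood F test, R 4.3.3) was fitted to all genes kept by filterByExpr (18958 of 47729), with TMM scaling and a model of mouse plus group, and Benjamini-Hochberg adjustment ran over all genes tested. Log2 CPM used a prior count of 2. The pairs come from the animal number in the labels, and the eyes of a mouse correlated little after group means were removed (median -0.00095, range -0.37 to 0.64). No 2 libraries of a group were duplicates (72 pairs, chi-square per degree of freedom at least 49.5). Alternatives were no block, RLE and upper-quartile scaling, DESeq2 1.42.0, limma 3.58.1 voom with sample weights, no count filter, at least 10 counts in every library, marker covariates, and leaving out each mouse or mice 6 and 8. Methods were tested on simulated data. There DESeq2 made a larger share of false calls than edgeR or voom, and edgeR missed most planted 2-fold changes. The pool share had a planned exact test, and its p is not given because the share is a score over the chosen genes. Coordinates are from GENCODE M21 on GRCm38, and shared words of 31 bases estimate reads that genes share. Named genes were the 10 members, *Nfe2l2*, up to 3 genes in each direction with the largest change per list among those called with mean log2 CPM of at least 2, the nearest protein-coding neighbours, and the 3 genes most like each of the 3 members with the smallest p. Named outside this rule, with their values seen, were *Ltc4s*, *Alox5ap*, *Ptges*, *Fah*, *Krt12*, *Gstm5*, *Rpe65* and *Mrc1*, and, as genes that overlap a member, *Gm20441*, *Pomt2*, *Ints12* and *Cfap43*. Neighbours are given by counts and by those near the theta, omega and *Mgst3* genes. The members and lists were chosen with earlier results of these data known.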

Additional observations from a re-analysis of the deposited data

Results flagged for a closer look

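In 20 groups of 9 libraries (10 genes in each of the control and Best1-Nrf2 groups), 2 had a library far from the others on the log2 CPM scale, where about 1 is expected by chance. For *Mgst2*, control replicate 8 stood at 3.21 log2 CPM (161 counts, 9.18 CPM), with the next control at 1.06 (2.03 CPM), a gap of 0.541 of the group's range. For *Mgst3*, Best1-Nrf2 replicate 8 stood at 8.06 log2 CPM (8215 counts, 265.9 CPM), with the next at 6.25 (76.2 CPM), a gap of 0.534 of the range. Both libraries came from mouse 8, whose eyes held the highest shares of ocular surface epithelium markers, 6.82% of counts in the control and 5.03% in the Best1-Nrf2 eye. The part of those markers in these values was not tested.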

How the results depend on the processing

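The mouse block changed none of the 10 genes' calls. Without the replicate block, *Gstt3* stood at -0.50 (adjusted p = 0.262), *Mgst1* at 0.93 (adjusted p = 0.125) and *Gsto1* at -0.19, 742 genes passed in all, and 0 relatives of the same folds passed. Genes called higher and lower among the 10 were 1 and 1 with DESeq2, 1 and 2 with voom, and 0 and 2 without mice 6 and 8 (1130 genes called in all), and with 1 mouse left out 0 to 1 were called lower, the 1 being *Gstt3* without mouse 8. All genes called numbered 1478 with DESeq2 and 1426 with voom, but 12 with the photoreceptor covariate and 30 with the macrophage covariate. Under those covariates alpha, mu and pi calls were 3 and 3, relatives 0 and 0, mercapturate genes 0 and 0, leukotriene and prostaglandin genes 0 and 0, and Nrf2 pathway genes 0 and 3. The cone markers and the macrophage and microglia markers move with the group, so the covariates take up part of the comparison. *Nfe2l2* stood at 1.82 (adjusted p = 0.165) under the first. Relatives called were 2 with upper-quartile scaling, 2 with DESeq2, 2 with voom, 2 without mice 6 and 8, and 0 to 1 with 1 mouse left out (0 without mouse 1, 3, 4, 7 or 9). Leukotriene and prostaglandin genes called were 4 with DESeq2, 4 with voom and 1 to 3 with 1 mouse left out. Directions reversed with the photoreceptor covariate for *Gstt1* (0.96), *Gstt2* (0.57) and *Gstcd* (0.75), and it moved *Gstz1* to 0.44, *Gstk1* to 0.65, *Mgst2* to -0.68 and *Mgst3* to -0.060, none of them called. The macrophage covariate moved *Gstt3* to -0.90 and *Mgst3* to -0.52, and *Mgst3* was -0.18 with no block. *Gstz1* reversed with voom (-0.024), the macrophage covariate (-0.017), the ocular surface covariate (-0.0038) and without mice 6 and 8 (-0.053), and ranged from -0.034 to 0.16 with 1 mouse left out. *Mgst2* reversed with voom (0.16), the ocular surface covariate (0.036) and without mice 6 and 8 (0.13), and ranged from -0.24 to 0.060 with 1 mouse left out. With 1 mouse left out, the within-mouse difference ranged from -0.25 to 0.038 for *Gstt2* minus *Gstt3*, from 0.038 to 0.31 for *Gstt1* minus *Gstt3*, from 0.079 to 0.51 for *Mgst2* minus *Mgst3*, from 0.79 to 1.30 for *Mgst1* minus *Mgst2*, from 0.28 to 0.40 for *Gstt1* minus *Gstt2* (exact adjusted p = 0.0469 without mouse 8) and from 1.11 to 1.52 for *Mgst1* minus *Mgst3* (exact adjusted p = 0.0469 without mouse 9). The change in pool share was -9.94 percentage points with *Gsto1* left out. Other causes of these shifts were not tested. Another scaling was not run for the differences between 2 genes, where it cancels. No scaling moved the median of all genes by more than 0.1. Depth limits *Mgst2* most, with as few as 11 counts in a library.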
